A study of Rattus norvegicus with 9 samples.

Results

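Sham-operated and intact rat synovium were compared through 6 of the 9 RNA sequencing libraries of the series, the 3 labelled Sham and the 3 labelled Intact. Both tissues came from wild-type male Lewis rats aged 10 to 12 weeks and were synovium from around the medial meniscus. Intact rats had no operation. In the sham group the joint capsule had been opened and closed again 1 week earlier. The other 3 libraries (pMx) held the tissue regrowing 1 week after partial medial meniscectomy, the removal of the front part of the medial meniscus. They lent their spread to the model, and their values are set beside the others where stated. The comparison addresses how synovial gene expression differed 1 week after the joint had been opened and closed without meniscectomy. The titles call the 3 libraries of a group biological replicates, but no source used here says whether they came from separate animals or from both knees of fewer animals, so p-values measure the spread between these libraries, which may be technical. Each library is of homogenized tissue, in which fewer cells of a type and less RNA per cell cannot be told apart.

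Synovium has a thin lining of fibroblasts, which secrete lubricin and hyaluronan, mixed with macrophages, and under it a loose sublining with vessels, nerves and fat. After a wound, connective tissue fibroblasts divide and lay down a provisional matrix of matricellular proteins, then fibrillar collagen. Macrophages that enter the wound clear debris and, together with fibroblasts, secrete proteases that remodel the new matrix.

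The deposited unit is TPM, a transcript abundance scaled for length and to a total of 1000000 in each library, and it was analyzed as log2(TPM + 1). Of 17602 genes listed, 16512 were above 0 TPM in at least 3 libraries and were tested with limma. A gene with an adjusted p below 0.05 and a log2 fold change beyond 1 in either direction is called a differentially expressed gene (DEG). There were 323 DEGs (1.96% of genes tested), of which 235 (1.42%) rose and 88 (0.533%) fell in the sham group. With the adjusted p alone, 1112 genes (6.73%) were higher and 985 (5.97%) lower. The median log2 fold change over all genes tested was -0.02. All sham libraries were above all intact ones, without overlap, for 14.2% of genes tested, and below them for 16.4%. The groups overlapped for only 2 of the 323 DEGs, so a lack of overlap adds little to a DEG call. Fold changes below are on the log2(TPM + 1) scale, which understates those of genes near or under 1 TPM, and values in a group are given in the order of replicates 1, 2 and 3.

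Intact replicate 3 stood apart. The 32 tested genes of a skeletal muscle list summed to 70710 TPM in it, or 7.07% of the library, against 144.7 and 461.5 TPM in the other intact libraries and 473.2 to 4920 TPM in the sham libraries. Without Intact replicate 3 there were 183 DEGs higher (1.11%) and 143 lower (0.866%) in sham, and they included 170 of the 235 higher and 85 of the 88 lower DEGs. The main calls that changed are given with each group of genes, for some groups as counts only. The RNA integrity values that the study lists are separate for sham and intact samples, so RNA integrity and group cannot be told apart. The defining markers of synovium were present in all 6 libraries. Of the fibroblast markers, Prg4 (lubricin) was at 1245 to 2986 TPM, Cd34 at 195.63 to 268.96 TPM and Pdgfra at 57.18 to 92.76 TPM. The macrophage markers Csf1r and Cd68 were at 84.56 to 198.51 and 65.96 to 166.5 TPM.

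**Figure D1:**
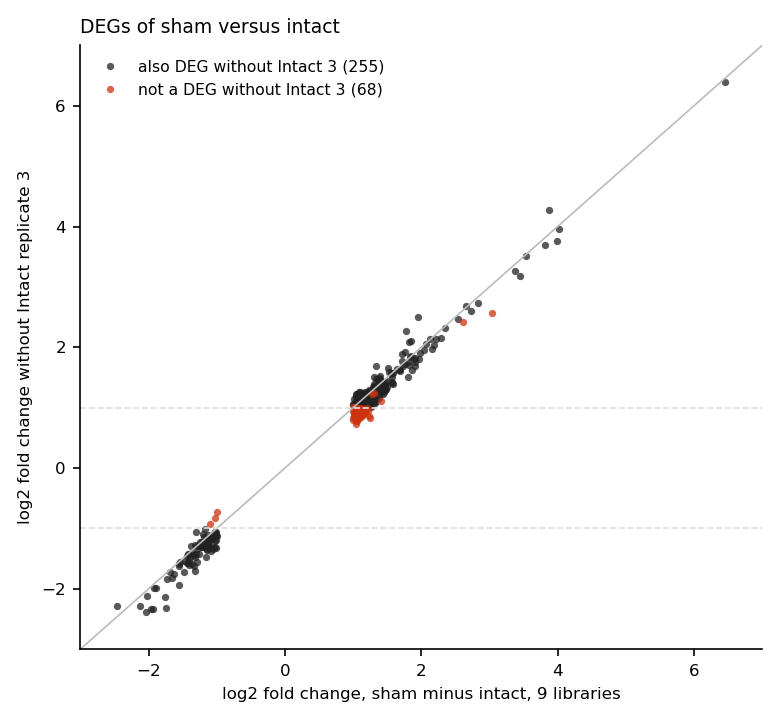
Log2 fold change of each of the 323 DEGs with all 9 libraries (horizontal axis) against the same without Intact replicate 3 (vertical axis), both on the log2(TPM + 1) scale. Black points are the 255 genes also called without that library, red points are the 68 that were not, the gray line marks equal values and the dashed lines mark the fold-change threshold; most red points lie just under it.

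The largest increase of any gene was that of Tnn, followed by Lrrc15. Tnn encodes tenascin-W, a matricellular protein of developing bone and of stroma. Its level was 1.21, 0.49 and 0.62 TPM in intact and 201.5, 193.46 and 90.33 TPM in sham tissue. Even the lowest sham value was far above all intact ones, and the log2 fold change was 6.45 (standard error 0.29, adjusted p = 6.71e-05 from limma). Lrrc15, a membrane protein of activated fibroblasts, was at 1.05, 0.92 and 0.75 TPM in intact and at 31.27, 43.85 and 19.65 TPM in sham tissue (log2 fold change 4.03, standard error 0.24). Cthrc1, a secreted protein of wound fibroblasts, was at 36.29, 42.31 and 29.44 TPM in intact and at 246.56, 295.7 and 196.63 TPM in sham tissue (2.74, standard error 0.16). For all 3 genes, which were chosen among DEGs without overlap, sham replicate 3 was the lowest sham library. The same library was the nearest to intact for 177 of the 235 DEGs that rose, and sham replicate 2 was the highest for 184.

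The list of 31 matricellular and provisional matrix genes held 15 DEGs that rose and 1 that fell, with a median log2 fold change of 0.65. Postn (periostin), which binds collagen and cell surface integrins, was at 408.64, 331.49 and 222.17 TPM in intact and at 1117, 1230 and 1077 TPM in sham tissue, and its means rose from 321 ± 93.7 to 1141 ± 79.4 TPM (SD, n = 3; log2 difference 1.87, limma adjusted p = 0.00266). Adam12, a metalloprotease of myofibroblast precursors, rose by 2.54, and the CCN family members Ccn4 and Ccn5 by 1.74 and 1.47. Spp1 (osteopontin) is secreted by macrophages and bone cells. It was at 32.29, 9.56 and 6.19 TPM in intact and at 130.21, 265.2 and 38.86 TPM in sham tissue. Its groups did not overlap, but the highest intact value (32.29) was close to the lowest sham value (38.86), and its adjusted p went from 0.0317 to 0.0564 when Intact replicate 3 was left out. The DEG that fell was Ccn2, which encodes connective tissue growth factor, at 1204, 1619 and 1242 TPM in intact and 699.17, 531.46 and 732.24 TPM in sham tissue (-1.05, adjusted p = 0.00625 from limma). Fibronectin (Fn1) and tenascin-C (Tnc) had log2 fold changes of -0.21 and 0.65 with adjusted p-values of 0.559 and 0.107. When Intact replicate 3 was left out, the list held 11 DEGs that rose and 2 that fell.

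**Figure D2:**
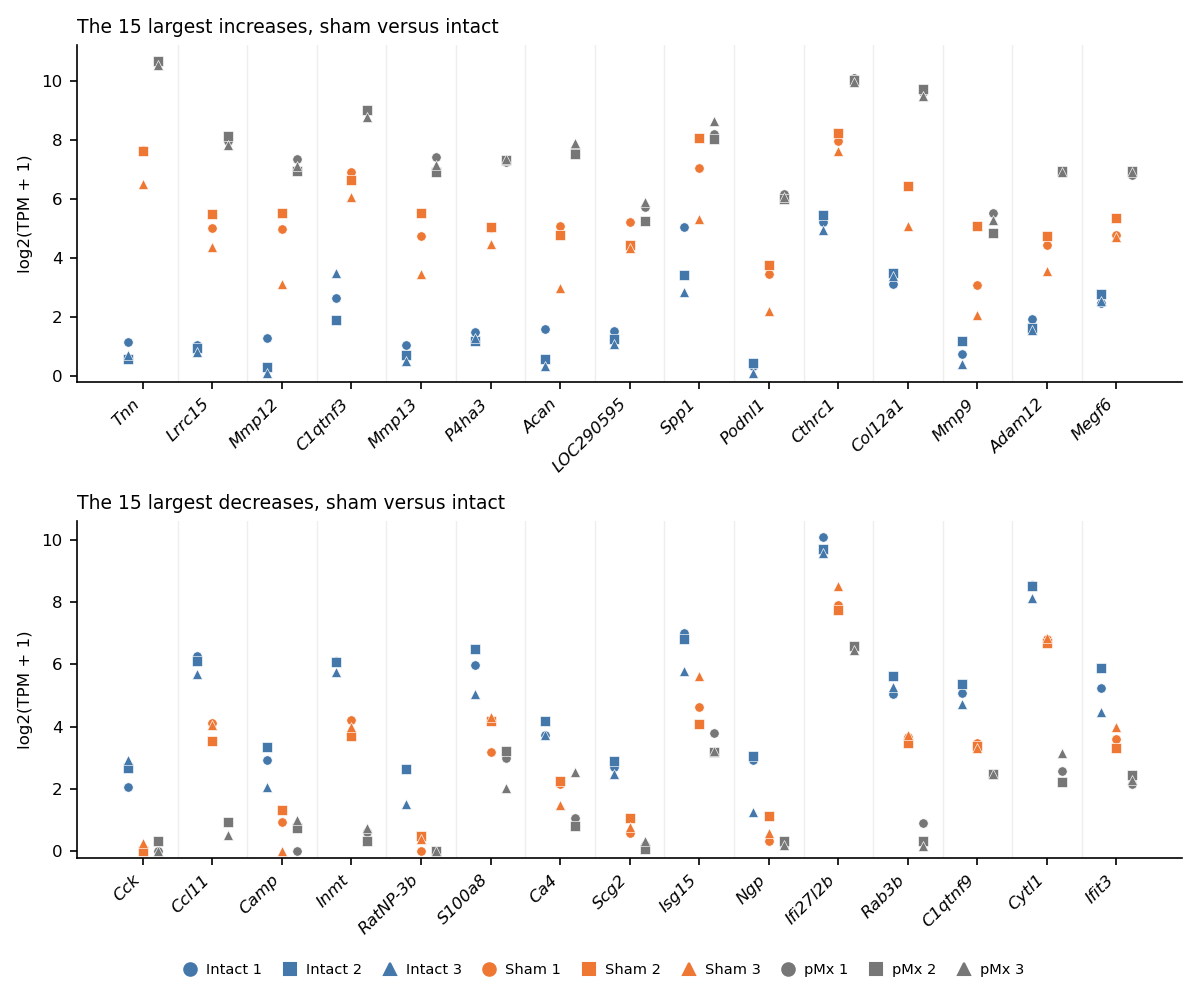
Level of the 15 DEGs with the largest increase (upper panel) and the 15 with the largest decrease (lower panel) among those whose sham and intact libraries did not overlap, as log2(TPM + 1) in each library; colors mark the group and symbols the replicate. In the upper panel sham replicate 3 is the lowest sham point for all 15 genes, and the pMx points lie above the sham mean.

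Fibrillar collagens, the chains that form the load-bearing fibers of connective tissue, included many genes that rose. Of 11 genes tested, 7 were DEGs, all higher in sham, and the median log2 fold change was 1.31. Col1a1 was at 1842, 1579 and 1128 TPM in intact and at 4419, 5129 and 3954 TPM in sham tissue (1.59, standard error 0.19, adjusted p = 0.00397 from limma). Col3a1, the chain of early wound collagen, was at 4365, 4218 and 2633 TPM in intact and at 9232, 10033 and 8055 TPM in sham tissue (1.31, standard error 0.21). No sham library overlapped with an intact one for either gene. Col1a2, Col5a1, Col5a2, Col5a3 and Col11a1 were the other 5 DEGs, with log2 fold changes of 1.37, 1.48, 1.31, 1.15 and 1.72. Col2a1, the cartilage collagen, was at 16.14, 0.29 and 0.24 TPM in intact and at 0.14, 0.46 and 2.26 TPM in sham tissue and did not pass the test (adjusted p = 0.634). The summed TPM of the list was 5243 to 8630 in intact and 16360 to 20980 in sham libraries. Intact replicate 3 had the lowest sum, and without it 6 of the 7 were still DEGs and Col5a3 fell short of the fold-change threshold (0.93).

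Among the 32 other collagen chains, 5 rose, 1 fell and the median was 0.17. Col12a1, which sits on the surface of collagen fibrils, had the largest increase of any collagen, from 7.57, 10.09 and 9.49 TPM to 85.92, 84.35 and 32.5 TPM (2.65, standard error 0.33). Col16a1 rose by 1.43 and the collagen VI chains Col6a1, Col6a2 and Col6a3 by 1.15, 1.04 and 1.05. All 3 collagen VI chains were under the threshold of 1 without Intact replicate 3 (0.97, 0.86 and 0.85). Col28a1, a collagen found near peripheral nerve, fell from 36.92, 32.17 and 22.75 TPM to 12.54, 12.48 and 15.23 TPM (-1.11). Of 30 genes for procollagen folding, processing and cross-linking, 2 were DEGs. P4ha3, a subunit of prolyl 4-hydroxylase, was at 1.77, 1.28 and 1.42 TPM in intact and at 31.37, 32.28 and 20.99 TPM in sham tissue (3.53, standard error 0.15, adjusted p = 6.71e-05 from limma). Lox, which oxidizes lysines so that fibers can cross-link, rose by 1.09, and by 0.91 without Intact replicate 3, which is under the threshold. A further 13 genes of that list, among them the collagen chaperone Serpinh1 (0.75), were higher by the adjusted p alone, below the fold-change threshold.

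Proteoglycans moved less evenly. Lum (lumican), which spaces collagen fibrils, was at 630.67, 601.42 and 507.21 TPM in intact and at 2194, 2558 and 1789 TPM in sham tissue (1.90, standard error 0.14, adjusted p = 0.00076 from limma). Acan, the large proteoglycan of cartilage, was at 2.01, 0.49 and 0.25 TPM in intact and at 32.52, 26.38 and 6.84 TPM in sham tissue (3.44, standard error 0.53). Vcan (versican), a proteoglycan of provisional matrix, rose by 1.36. The groups did not overlap for these 3 genes, and the spread of Acan between sham libraries was the widest. Of 14 small leucine-rich proteoglycans 2 rose, Lum and Bgn, and of 18 large proteoglycan, hyaluronan and lubricin genes 2 rose, Acan and Vcan, with medians of 0.18 and 0.08. Bgn was, without Intact replicate 3, below the fold-change threshold (0.86). In the elastic fiber list, Fbn2, Mfap2 and Mfap5 were DEGs that rose among 14 genes (1.38, 1.14 and 1.09), of which only Fbn2 remained a DEG without that library. Fbn2 was at or below 0.22 TPM in every intact library and at 2.27, 2.68 and 1.13 TPM in sham.

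**Figure D3:**
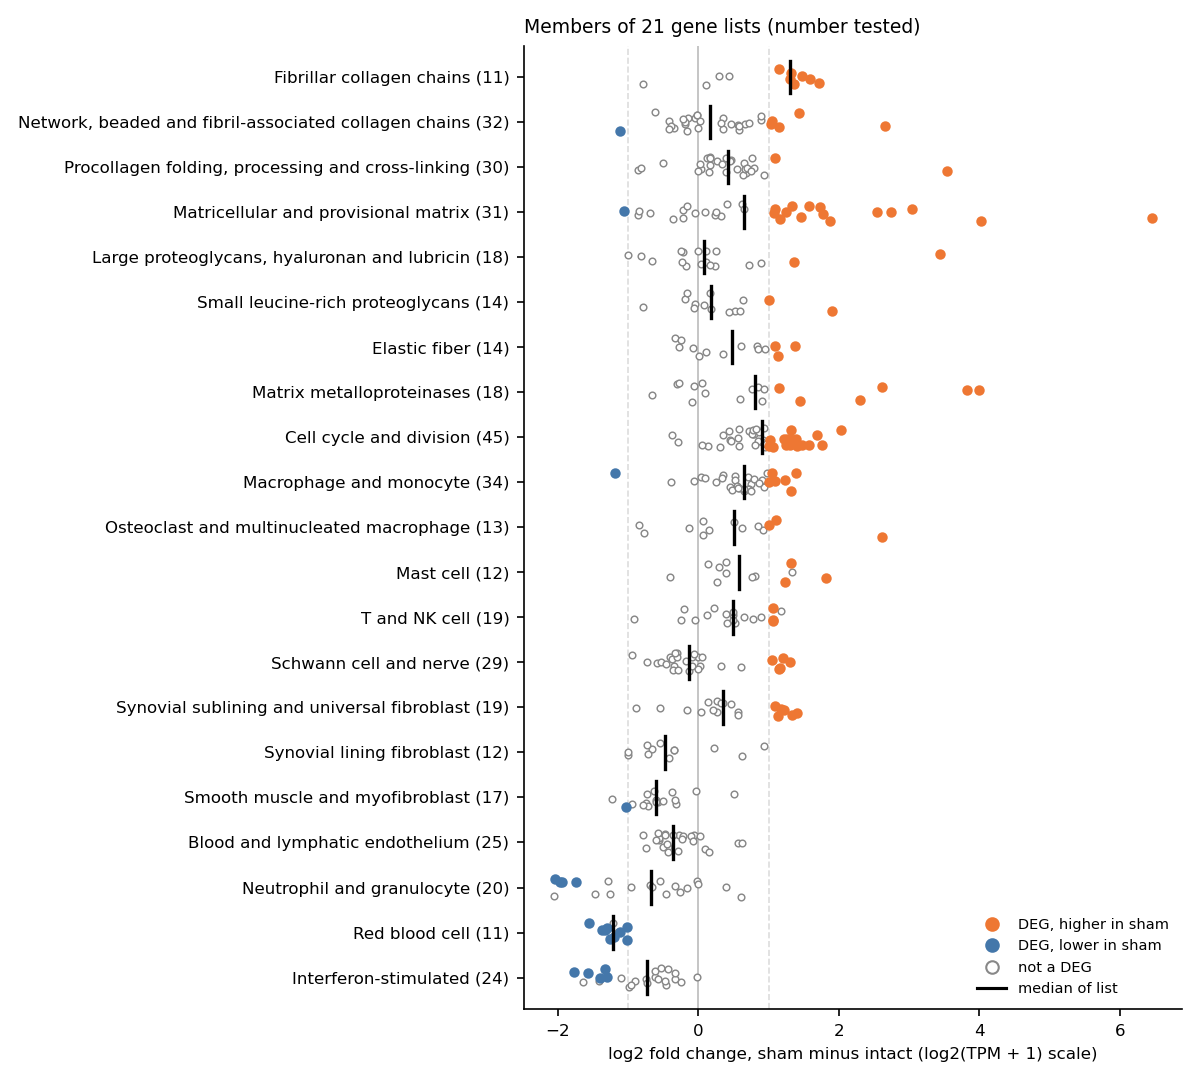
Log2 fold change of sham over intact (horizontal axis, log2(TPM + 1) scale) for the tested members of 21 gene lists, the number tested in brackets. Each point is a gene, filled orange if a DEG higher in sham, filled blue if a DEG lower in sham and open if neither; black bars are list medians, and the dashed lines mark the fold-change threshold of 1 in each direction.

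Matrix metalloproteinases, the secreted and membrane enzymes that cut collagen, elastin and other matrix proteins, included 6 DEGs among 18 genes, all of which rose (median 0.81). Mmp12, the macrophage elastase, was at 1.4, 0.22 and 0.07 TPM in intact and at 30.74, 44.44 and 7.66 TPM in sham tissue. Its log2 fold change was 3.99 (standard error 0.57, adjusted p = 0.00601 from limma). Mmp13, a collagenase, was at 1.05, 0.62 and 0.41 TPM in intact and at 25.42, 44.84 and 9.83 TPM in sham tissue (3.82, standard error 0.45). Both genes were highest in sham replicate 2 and lowest in sham replicate 3, with no overlap with intact. Mmp9, a gelatinase of neutrophils and osteoclasts, showed the same order over a wider range, at 7.46, 32.3 and 3.14 TPM against 0.68, 1.28 and 0.32 TPM in intact. Its call (2.62, adjusted p = 0.0349) was lost without Intact replicate 3 (adjusted p = 0.0602). Mmp11 rose by 2.29 and Mmp14, the membrane enzyme that activates Mmp2, by 1.45. Mmp2 itself rose by 1.15, and by 0.95 without Intact replicate 3, which is under the threshold. Of the inhibitors of these enzymes, Timp1 had a log2 fold change of 0.86 (adjusted p = 0.00524), below the fold-change threshold, and Timp4 fell by 1.13. None of 9 genes of plasminogen activation was a DEG by limma and 1 passed the adjusted p alone. Over all genes tested these shares were 1.96% and 12.7%, so nothing particular to this short list can be read from its counts.

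Promoters of Mmp12 and Mmp13 are shown because these were the proteases with the largest increases, with the AP-1 motif in capitals. AP-1 is the Fos and Jun transcription factor long known to act on collagenase promoters. The motif searched was TGANTCA on both strands of the 250 bases before the annotated start in RefSeq (GRCr8). Each stretch below is the last 120 of those bases, 5′ to 3′ on the gene's strand.
Mmp12 (chr8:12866532-12866651, + strand): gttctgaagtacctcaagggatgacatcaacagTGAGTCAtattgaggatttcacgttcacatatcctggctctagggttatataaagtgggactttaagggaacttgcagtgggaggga
Mmp13 (chr8:12782709-12782828, + strand): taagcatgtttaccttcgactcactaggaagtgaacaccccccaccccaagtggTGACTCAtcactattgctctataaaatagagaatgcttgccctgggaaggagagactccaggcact
The motif began 87 bases before the start of Mmp12 and 66 before that of Mmp13. It was in 5 of the 12 metalloproteinase genes with a promoter in the table (41.7%). Of all tested genes with a promoter there 5.32% held it, and of the DEGs higher in sham 10.4%. The other 3 were Mmp3, Mmp7 and Mmp10, which were not DEGs, and Mmp11, which rose, had no match in this window. Mmp2, Mmp9 and Mmp14, which also rose, had no entry. The Fos and Jun transcripts themselves belong to a list of 23 immediate-early genes, of which none was a DEG by limma. By the adjusted p alone 1 was higher and 1 lower. Over all genes tested 1.96% were DEGs, and 6.73% were higher and 5.97% lower by the adjusted p alone. These counts therefore show nothing particular to the list, and the activity of AP-1 was not tested. Of the 23, 21 had negative log2 fold changes, and the median was -0.33, against -0.02 over all genes. A match to these letters is a description and not a site of binding.

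Fibroblast markers are given first for the lining and then for the sublining, and the difference between these lists was not tested. Prg4, the lubricin of the lining, was at 2852, 2986 and 2100 TPM in intact and at 1451, 1245 and 1248 TPM in sham tissue. The groups did not overlap, and its log2 difference of -0.995 (limma adjusted p = 0.017) was just short of the threshold. It was past it without Intact replicate 3 (-1.15). Clic5, a marker of lining fibroblasts, was at 448.42, 502.78 and 436.02 TPM in intact and at 308.02, 156.9 and 253.14 TPM in sham tissue, also just short of the threshold (-0.999, adjusted p = 0.0476). Of 12 lining genes none was a DEG by limma, 5 were lower and 1, Pdpn (0.62), higher by the adjusted p alone, and the median was -0.48. Of 19 sublining and universal fibroblast genes 6 rose and none fell, with a median of 0.36. The summed TPM of this list was 9417, 8942 and 6274 in intact and 6575, 6347 and 7300 in sham libraries. All sham sums were thus below those of Intact replicates 1 and 2, and the groups overlapped. Thy1, the sublining surface marker, was at 147.1, 118.68 and 99.76 TPM in intact and at 327.01, 401.83 and 249.98 TPM in sham tissue (1.40, standard error 0.18, adjusted p = 0.00497). Sfrp4, a Wnt antagonist, and Dpp4, a peptidase of universal fibroblasts, rose by 1.21 and 1.18. Cd34 and Pdgfra, pan-fibroblast markers of this layer, had log2 fold changes of 0.14 and 0.27 (adjusted p = 0.465 and 0.174). Without Intact replicate 3 the sublining list held 4 DEGs that rose and 1, the actin-severing Gsn, that fell (-1.09). Its median was then 0.16.

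Contractile genes of smooth muscle and myofibroblasts were not among those that rose. Of 17 tested, 16 had negative log2 fold changes and the median was -0.61, against -0.02 over all genes. Acta2, the smooth muscle actin that also marks myofibroblasts, was at 2081, 3385 and 1975 TPM in intact and at 1369, 1311 and 1683 TPM in sham tissue (-0.73, adjusted p = 0.0464 from limma), without overlap and below the fold-change threshold. Synpo2, an actin-bundling protein of muscle Z-discs, was the DEG of the list (-1.02), and its call was lost without Intact replicate 3 (adjusted p = 0.0577). Myh11 was then the DEG in its place (-1.11). Of 25 endothelial genes none was a DEG by limma, while 7 were lower and 1 higher by the adjusted p alone (median -0.36). Of 25 adipocyte genes none was a DEG by limma and 1 passed the adjusted p alone. Over all genes tested 1.96% were DEGs and 12.7% passed the adjusted p alone, so the absence of DEGs from either list says little. The summed TPM of the adipocyte list was 4330 to 11360 in intact and 7602 to 8663 in sham libraries. The adipokine Adipoq was at 1027, 327.29 and 65.81 TPM in intact and 879.71, 699.2 and 649.44 TPM in sham tissue, so the groups overlapped.

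Most genes of DNA replication and mitosis were higher in sham tissue. Of 45 tested, 18 were DEGs and 37 passed the adjusted p alone, all higher in sham, and the median log2 fold change was 0.91. Cdk1, the kinase that drives entry into mitosis, was at 5.03, 6.24 and 5.06 TPM in intact and at 20.32, 23.84 and 15.52 TPM in sham tissue (1.68, standard error 0.14, adjusted p = 0.00129 from limma). Mki67, the Ki-67 marker of dividing cells, was at 1.68, 2.41 and 1.89 TPM in intact and at 6.44, 9.09 and 4.36 TPM in sham tissue (1.31, standard error 0.21). Rrm2, a subunit of ribonucleotide reductase, had the largest increase of the list (2.03). For these 3 genes the sham libraries were in the order 2, 1, 3 from high to low and none overlapped with intact. There were 17 DEGs that rose in the list when Intact replicate 3 was left out. Cdkn1c, which encodes the cyclin-dependent kinase inhibitor p57, rose as well, from 14.5, 11.32 and 10.51 TPM to 42.07, 64.27 and 47.66 TPM (1.99, adjusted p = 0.00129). It was the DEG among 19 genes of kinase inhibitors and p53 targets. Cdkn1a (p21) had a log2 fold change of 0.18 (adjusted p = 0.396).

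Macrophage genes were higher by smaller amounts. Of 34 tested, 20 were higher and 1 was lower by the adjusted p alone, 6 rose and 1 fell as DEGs, and the median was 0.66. Clec4a3, a lectin receptor of monocytes, was at 47.64, 36.96 and 29.8 TPM in intact and at 101.66, 115.35 and 86.03 TPM in sham tissue (1.40, standard error 0.16, adjusted p = 0.00357 from limma). Clec4a1 rose by 1.32, Clec7a, a receptor for fungal glucans, by 1.10, and Ccr2, the chemokine receptor of monocytes recruited from blood, by 1.23. Vsig4, a complement receptor of resident macrophages, fell from 188.62, 112.53 and 112.56 TPM to 72.83, 40.51 and 66.32 TPM (-1.19, adjusted p = 0.0461), without overlap. The summed TPM of the list was 2655 to 4126 in intact and 4616 to 5035 in sham libraries, and the lowest sum was in Intact replicate 3. Without that library 2 members were DEGs that rose, Clec4a1 and Clec4a3, 1 fell, and 15 were higher by the adjusted p alone. Ccr2 then had a log2 fold change of 0.86. Of 13 osteoclast genes 3 rose, namely Mmp9, Acp5 (1.11), the tartrate-resistant acid phosphatase, and Atp6v0d2 (1.00), a proton pump subunit. Atp6v0d2 was the only one of them still called without Intact replicate 3.

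Chemokines did not move as a set. Of 30 tested, 3 rose, 1 fell and the median was 0.03. Ccl9, which attracts myeloid cells in rodents, was at 6.83, 4.22 and 3.32 TPM in intact and at 18.37, 40.88 and 18.47 TPM in sham tissue (2.16, standard error 0.32). Ccl11 (eotaxin), which attracts eosinophils, fell from 75.6, 68.26 and 50.39 TPM to 16.23, 10.57 and 15.57 TPM (-2.12, standard error 0.21, adjusted p = 0.00212 from limma). Both were without overlap and were called in all 9 fits that each left out 1 library. Ccl6 and Ccl12 rose by 1.02 and 1.14. The balance turned when Intact replicate 3 was left out: 1 chemokine (Ccl9) was then a DEG that rose and 4 fell, since Ccl6 and Ccl12 were below 1 (0.92 and 0.89) and Cxcl10, Cxcl13 and Cx3cl1 joined Ccl11 (-2.33, -1.94 and -1.09). Among 28 interleukins and inflammatory cytokines, Il1rn, the antagonist of the interleukin-1 receptor, rose by 1.28 and Il12a fell by 1.37. The cytokines Il1b, Il6 and Tnf did not pass the test (log2 fold changes 0.53, -0.64 and 0.19, adjusted p = 0.0993, 0.0667 and 0.512). All intact and sham values of the 3 genes were between 0.16 and 5.15 TPM.

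Some lymphoid and mast cell transcripts rose. Fcer1a, a chain of the IgE receptor of mast cells and basophils, was at 0.6, 0.65 and 0.75 TPM in intact and at 3.06, 2.87 and 3.52 TPM in sham tissue (1.31, standard error 0.13, adjusted p = 0.00239 from limma). Il1rl1, the receptor of interleukin-33, rose by 1.82, and the mast cell chymase Cma1 by 1.24. Cma1 was at 37.44, 29 and 13.43 TPM in intact and at 54.16, 49.41 and 78.06 TPM in sham tissue, and it was below the fold-change threshold without Intact replicate 3 (0.83). These were the 3 DEGs among 12 mast cell genes (median 0.58). Of 19 T and NK cell genes 3 rose, Cd3e, Cd3g and Cd8b, each by 1.07, and the call of Cd3e was lost without Intact replicate 3. In the same fit the cytotoxic granule gene Gzma was a DEG that fell (-1.06). None of 12 B and plasma cell genes was a DEG by limma and 2 passed the adjusted p alone, near the 1.96% and 12.7% of all genes tested. Without Intact replicate 3, however, the B cell genes Cd79b and Ms4a1 were DEGs that fell, Cd79b by 1.25 on the log2 scale. Of 16 antigen presentation and dendritic cell genes 1, the integrin Itgax, rose (1.31), and its call was lost without Intact replicate 3 (adjusted p = 0.060).

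Some transcripts of a Schwann cell and nerve list rose. Of 29 Schwann cell and nerve genes 5 were DEGs, all higher in sham, but 20 had negative log2 fold changes, 2 were lower by the adjusted p alone and the list median was -0.14. Nefh, the heavy neurofilament chain, was at 0.11, 0.25 and 0.06 TPM in intact and at 1.86, 2.08 and 1.5 TPM in sham tissue (1.30, standard error 0.17, adjusted p = 0.00507 from limma). Gap43, a protein of growing axons, was at 8.16, 9.96 and 4.55 TPM in intact and at 15.89, 16.38 and 16.08 TPM in sham tissue (1.06). Neither gene overlapped between groups, and without Intact replicate 3 Gap43 was below the fold-change threshold (0.77). Tubb3, Uchl1 and Ncam1 rose by 1.20, 1.15 and 1.17. Several of these genes are also expressed outside neurons. Mean pMx levels of Nefh, Tubb3, Uchl1 and Ncam1 were above those of sham (3.40, 29.1, 56.6 and 32.5 TPM), and that of Gap43 (14.3 TPM) was not. The summed TPM of the list was 525.7 to 538 in pMx and 837.4 to 962.1 in sham libraries. Without Intact replicate 3 the list held 4 DEGs that rose and 1, the sodium channel gene Scn7a, that fell, and 6 were lower by the adjusted p alone. The light neurofilament chain Nefl stayed below 0.5 TPM in all 6 libraries (0.05, adjusted p = 0.832).

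Blood cell transcripts fell. All 11 tested red blood cell genes were lower in every sham library than in every intact library, and 9 were DEGs. Groups not overlapping in this direction were found for 16.4% of all genes tested. The alpha globin gene Hba-a1 was at 10009, 19229 and 12869 TPM in intact and at 4905, 5446 and 7662 TPM in sham tissue (-1.20, standard error 0.25, adjusted p = 0.020 from limma). Alas2, the first enzyme of heme synthesis in red cell precursors, was at 36.2, 77.17 and 52.11 TPM in intact and at 17.03, 19.5 and 27.52 TPM in sham tissue (-1.29, standard error 0.27). For both genes intact replicate 2 was the highest and sham replicate 3 the nearest to intact. Globin genes are near-identical copies between which reads may be split, so values of single globin genes are uncertain. The summed TPM of the list was 19870 to 38290 in intact and 9917 to 15080 in sham libraries. The same 9 genes were DEGs without Intact replicate 3.

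Of 20 genes of neutrophils and other granulocytes 4 fell as DEGs, 6 were lower by the adjusted p alone, none rose and the median was -0.67. S100a8, a calcium-binding protein of neutrophils and monocytes, was at 62.48, 88.24 and 31.88 TPM in intact and at 8.09, 17.26 and 18.85 TPM in sham tissue (-1.94, standard error 0.46, adjusted p = 0.0307 from limma). Camp, the cathelicidin of neutrophil granules, was at 6.67, 9.23 and 3.22 TPM in intact and at 0.9, 1.53 and 0 TPM in sham tissue (-2.04). Ngp and the defensin gene RatNP-3b were the other DEGs (-1.74 and -1.96). Defensin genes are close copies, so the value of RatNP-3b is uncertain. For all 4, intact replicate 3 was the lowest intact library. Without it 9 members of the list were DEGs that fell, and the median was -0.89. How far the red blood cell and granulocyte transcripts share a source with each other or with the interferon genes below was not tested.

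**Figure D4:**
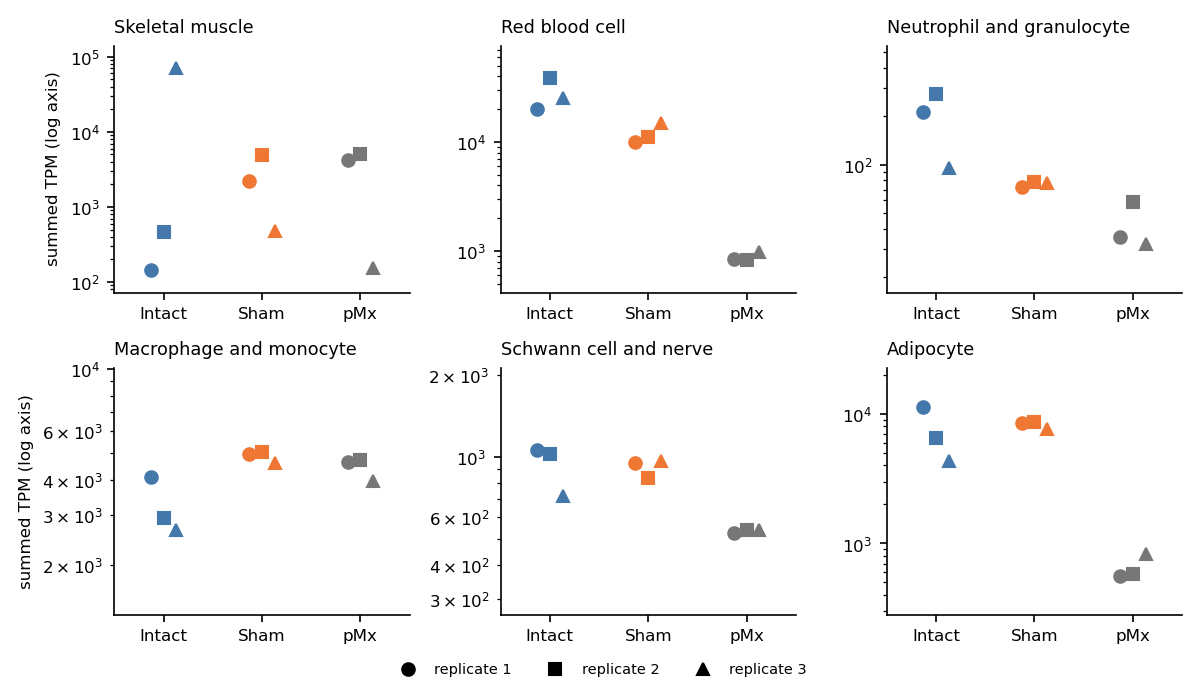
Summed TPM of 6 cell type gene lists in each library (log axis), by group, with symbols for the replicates. Skeletal muscle transcripts reach 70710 TPM in Intact replicate 3, red blood cell transcripts are higher in every intact than in every sham library, and macrophage transcripts are lower in every intact library.

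Interferon-stimulated genes were lower in sham tissue. All 24 tested had negative log2 fold changes, while 44.75% of all genes tested were above 0. There were 5 DEGs, all of which fell, and 12 genes passed the adjusted p alone (median -0.73). Isg15, a ubiquitin-like protein, was at 126.02, 111.78 and 54.4 TPM in intact and at 23.72, 15.92 and 47.84 TPM in sham tissue (-1.76, standard error 0.43, adjusted p = 0.033 from limma). Ifit3, an antiviral RNA-binding protein, was at 36.9, 58.34 and 20.93 TPM in intact and at 11.16, 8.98 and 14.81 TPM in sham tissue (-1.56, standard error 0.33). Irf7, the transcription factor that amplifies type I interferon production, was at 138.57, 119.62 and 75.01 TPM in intact and at 43.28, 32.41 and 57.27 TPM in sham tissue (-1.30, standard error 0.26). In each case the groups did not overlap, intact replicate 3 was the lowest intact library and sham replicate 3 the highest sham library. Mx2 and Cmpk2 were the other DEGs (-1.40 and -1.32). Ifi27l2b, an interferon-inducible gene outside the list, was at 1079, 825.92 and 765.2 TPM in intact and 236.56, 213.48 and 363.14 TPM in sham tissue (-1.73). Without Intact replicate 3, 12 members of the list were DEGs and 22 were lower by the adjusted p alone, with a median of -0.96.

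Promoters of Ifit3 and Irf7 are shown because these are the DEGs of the list with a match to the interferon-stimulated response element (ISRE), the sequence bound by interferon-activated factors. The motif was GAAA, any 2 bases and again GAAA, searched on both strands of the 250 bases before the RefSeq start (GRCr8), matches in capitals. Here both matches lie on the opposite strand, so the capitals read TTTC first.
Ifit3 (chr1:241527206-241527325, + strand): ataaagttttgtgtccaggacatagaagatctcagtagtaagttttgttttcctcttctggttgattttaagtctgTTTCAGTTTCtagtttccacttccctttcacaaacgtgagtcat
Irf7 (chr1:205800024-205800143, - strand): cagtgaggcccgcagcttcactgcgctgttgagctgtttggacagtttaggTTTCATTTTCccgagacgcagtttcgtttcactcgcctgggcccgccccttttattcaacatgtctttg
The matches began 44 and 69 bases before the start. Of the 24 members 16 had a promoter in the table, and 11 of these (68.8%) held the motif, against 2.92% of tested genes with one. The list is made of interferon-stimulated genes, so its share describes the list and not the comparison of sham and intact. Of 65 DEGs lower in sham with a promoter, 6 (9.23%) held the motif, Ifit3 and Irf7 among them. In Oas1a and Bst2 a pair of matches overlapped by 4 letters. Cmpk2, a DEG, had no match in this window, and Isg15 and Mx2 had no entry.

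Signals between cells are given by list. Over all genes tested 1.96% were DEGs, and 6.73% were higher and 5.97% lower by the adjusted p alone. By that measure 6 of 36 TGF-beta family genes were higher and 4 lower, as were 4 and 6 of 35 other growth factors. Of 20 prostaglandin genes 4 were higher and 2 lower, of 32 Wnt genes 3 and 2, and of 12 IGF genes 2 and 1. Of 36 genes of the TGF-beta, activin and BMP family 1 was a DEG, the activin antagonist Fst (follistatin), which fell from 40.37, 41.38 and 30.35 TPM to 12.72, 16.31 and 19.29 TPM (-1.17, adjusted p = 0.0139 from limma). The ligand Tgfb1 had a log2 fold change of 0.25 (adjusted p = 0.159). In the IGF axis, Pappa2, a protease that cuts IGF-binding proteins, fell by 1.48. Mdk (midkine), a heparin-binding growth factor, was at 24.68, 32.55 and 20.27 TPM in intact and at 61.07, 87.95 and 62.32 TPM in sham tissue (1.42, adjusted p = 0.00497), without overlap. Ntf3, the neurotrophin-3 gene, fell by 1.05, and Pla2g2a, a secreted phospholipase that releases arachidonic acid, by 1.55. Of 32 Wnt ligands and antagonists 1 was a DEG, Sfrp4, described above. No gene of cholesterol synthesis or of heat shock and endoplasmic reticulum stress was a DEG by limma among 24 of each. By the adjusted p alone 2 of each passed, as did 12.7% of all genes tested. In the tendon and cartilage list, where 3 of 25 genes rose and 1 fell (4 and 2 without Intact replicate 3, with Scx higher and Ucma lower), Cytl1, a secreted protein of cartilage, fell from 374.52, 366.2 and 280.87 TPM to 111.24, 101.94 and 113.7 TPM (-1.62).

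Cck, Scg2 and Inmt were among the 15 largest decreases and in no list described above. Cck, which encodes the peptide cholecystokinin, was at 3.16, 5.42 and 6.69 TPM in intact and at 0, 0 and 0.21 TPM in sham tissue (-2.47, standard error 0.21, adjusted p = 0.00129 from limma). Scg2 (secretogranin II), a protein of secretory granules, was at 5.52, 6.45 and 4.58 TPM in intact and at 0.49, 1.08 and 0.73 TPM in sham tissue (-1.89, standard error 0.15). Inmt, a methyltransferase, was at 67.31, 66.38 and 52.87 TPM in intact and at 17.41, 11.88 and 14.77 TPM in sham tissue (-2.02, standard error 0.16). The 3 were chosen among DEGs without overlap, and each was called in all 9 fits that left out 1 library. Rab3b, Ca4 and C1qtnf9 fell by 1.69, 1.92 and 1.66. Among the largest increases outside the lists, C1qtnf3, a secreted C1q and TNF related protein, was at 5.28, 2.69 and 10.12 TPM in intact and at 118.82, 99.4 and 66.17 TPM in sham tissue (3.87). Podnl1, a leucine-rich repeat protein, and Megf6 rose by 2.84 and 2.34, and 1 further gene of the 15 largest increases was an uncharacterized locus.

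The pMx libraries give a further level for the same genes. Both contrasts use the sham libraries, so their signs are not independent, and values are given side by side without a test of likeness. Of the 235 DEGs higher in sham than in intact, 194 had a higher mean in pMx than in sham. Of the 88 lower ones 85 had a lower mean in pMx. The same shares over all genes tested were not taken, so these counts are a description only. Tnn was at 1533, 1619 and 1477 TPM and Col1a1 at 16198, 16334 and 14475 TPM in the pMx libraries, above all sham values. Hba-a1 and Isg15 were at 457 and 9.76 TPM on average in pMx, below all sham values. Of the 235, 14 (5.96%) were lower in pMx than in sham as DEGs of that contrast, a share near the 4.85% of all genes tested. The members were chosen for high sham values, so the 14 are given as a description only. Sfrp4 was at 96.93, 128.61 and 84.55 TPM, Dpp4 at 0.86, 0.66 and 0.72 TPM, Cma1 at 2.71, 3.62 and 2.84 TPM and Fcer1a at 0.39, 0 and 0 TPM in pMx. Stmn2, a tubulin-binding protein of growing axons, also one of the 14 and named after its values were seen, was at 2.83, 3.74 and 3.24 TPM in intact, 10.81, 11.55 and 14.65 TPM in sham and 1.44, 2.33 and 3.99 TPM in pMx tissue. Ccr2, Ccl6, C3 and Fgf18 were also among them. The pMx samples were regrowing tissue from which the synovium around it had been trimmed, so operation and tissue cannot be told apart in that contrast. Of the 88 DEGs lower in sham, 0 were DEGs higher in pMx than in sham, as 3.36% of all genes tested were by limma.

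**Figure D5:**
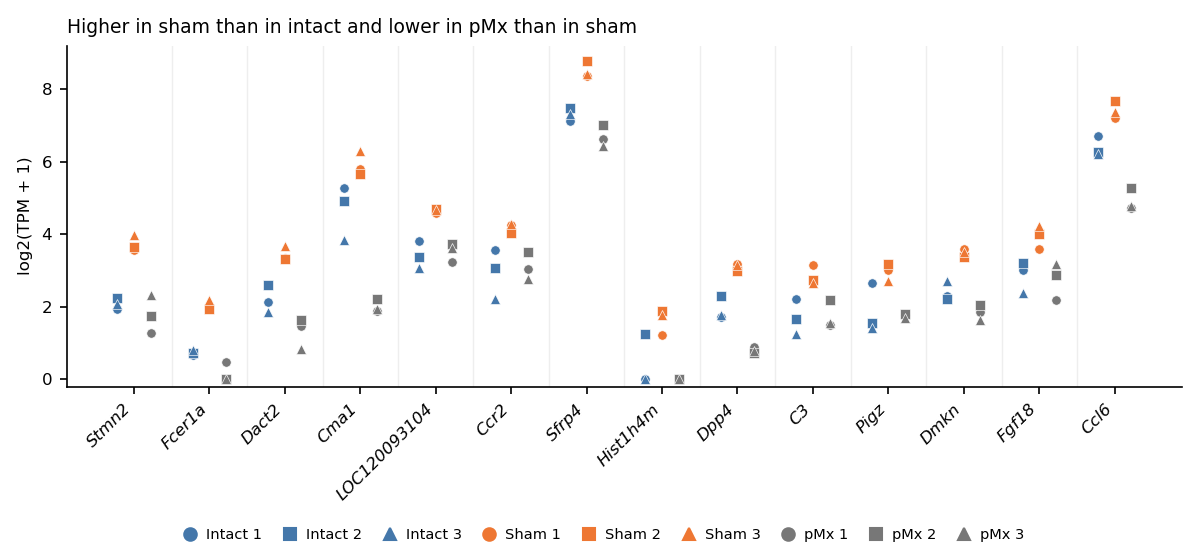
Level of the 14 genes that were DEGs higher in sham than in intact and DEGs lower in pMx than in sham, as log2(TPM + 1) in each library; colors mark the group and symbols the replicate. Stmn2, Sfrp4 and Dpp4 are higher in each sham library than in all others, and Hist1h4m overlaps between intact and sham.

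Skeletal muscle genes had no DEG by limma among 32 tested and none passed the adjusted p alone (1.96% and 12.7% over all genes tested). Ckm, the muscle creatine kinase, was at 6.23, 32.27 and 6266 TPM in intact and at 169.2, 307.36 and 21.07 TPM in sham tissue, with a log2 fold change of -0.13 (adjusted p = 0.983). Without Intact replicate 3 it was 2.76 (adjusted p = 0.311), and the list median went from -0.13 to 2.21. Sham replicates 1 and 2, in which most DEGs that rose were highest, also held more muscle transcript (2252 and 4920 TPM) than sham replicate 3 (473.2 TPM). With a skeletal muscle score as a covariate there were 247 DEGs higher and 116 lower, and with the muscle genes taken out and each library rescaled there were 222 and 108. How far the muscle content of the libraries takes part in the other results was not tested beyond these counts and those without Intact replicate 3.

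Calls close to the thresholds depended on which libraries were present. Of the 105 DEGs named in the text, 53 were called in all 9 fits that each left out 1 library. All 105 kept their direction in each of 24 other settings, but several of these settings could not change it. They altered only the threshold, the estimate of the spread or the pMx libraries. With the 6 sham and intact libraries alone, 34 of the 105 were not called. The matrix genes Tnn, Lrrc15, Cthrc1, Postn, Col1a1, Col3a1, Lum, Mmp12 and Mmp13 and the dividing-cell genes Cdk1 and Mki67 were among the 53. Ccr2, Cma1, Itgax, Ngp, Fgf18 and Hist1h4m were called in 1 of the 9 fits, Spp1, Mmp9, Mx2, Vsig4, Cd3e, Ccl12 and C3 in 2, and Isg15 and Synpo2 in 3. The adjusted p of Isg15 was highest without Sham replicate 2 (0.108) and lowest without Intact replicate 3 (0.0128). The count of DEGs that fell was 46 without Intact replicate 2 or Sham replicate 2 and 53 without Sham replicate 1, and that of DEGs that rose was 145 without Sham replicate 2.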

How the data were processed

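RNA from 9 samples of homogenized rat knee tissue (3 intact, 3 sham, 3 pMx) was sequenced on a DNBSEQ platform after oligo-dT selection. The deposited values are TPM per gene, made by the authors, who used Dr. Tom, a data system of BGI. The submitters' processing notes name HISAT2 2.0.4 and mRatBN7.2. The program that counted reads and its annotation are not given in the sources used here. TPM keeps no read number, so the depth is unknown and no counting interval can be given. Each library sums to a fixed total, so a high transcript in one lowers all others there.

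The deposited TPM were converted to log2(TPM + 1) and genes above 0 TPM in at least 3 of 9 libraries were kept. All 9 libraries entered a linear model with a mean for each group (limma 3.58.1 with a mean-variance trend, R 4.3.3), so the pMx libraries shared in the estimate of the spread. p-values were adjusted by the Benjamini-Hochberg method over all 16512 genes, and the thresholds (adjusted p below 0.05, absolute log2 fold change above 1) follow the study. The steps were tested on simulated data first. Named genes were the 15 DEGs with the largest change in each direction without overlap, members of the gene lists, and genes the study names. Not all genes of the study are described, and Cdkn2a and Sox9 are among those left out. Members and lists were chosen with earlier results of these data known. Alternatives were other pseudocounts (0.1 and 0.01), filters, scalings, model settings and thresholds, a replicate block, the 6 libraries alone, and leaving out each library. Promoters came from RefSeq (GRCr8), matched by gene ID. Figures were drawn with matplotlib 3.10.9.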

Additional observations from a re-analysis of the deposited data

How the results depend on the processing

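Apart from the thresholds, the pseudocount moved the total number of DEGs the most among the processing choices tried with all libraries. With 0.1 in place of 1 there were 612 DEGs, 452 higher and 160 lower, and with 0.01 there were 603, 466 and 137, against 323, 235 and 88. A low pseudocount gives larger fold changes to genes near 0 TPM. With the adjusted p alone there were 2097 genes, 1112 higher and 985 lower, and with an adjusted p below 0.01 there were 190, 155 and 35. The 6 sham and intact libraries alone gave 225, of which 48 were lower. Leaving out 1 library gave 191 to 417 DEGs, 145 to 309 higher and 46 to 143 lower. Leaving out Intact replicate 3 and the muscle genes together, a setting chosen after seeing the data, gave 144 lower. The other settings kept the counts within 1.5 times. The share of DEGs that were higher was 72.8%, and 56.1% without Intact replicate 3. Replicate numbers are shared by the groups, but same-numbered sham and intact libraries did not deviate together (r across genes of 0.0016, -0.399 and -0.493), and with the replicate number as a block there were 297 DEGs, 219 higher and 78 lower. Values with a changed sign were all of genes that did not pass the test. When 1 library was left out, the log2 fold change of Ckm ranged from -2.12 to 2.76 (-0.13 with all), that of Col2a1 from -1.42 to 0.47 (-0.78 with all), that of Mmp7 from -0.063 to 0.11 (0.05 with all) and that of Nefl from -0.055 to 0.16 (0.05 with all). Ckm was at 0.33 with the muscle score as a covariate. Where a cause is not given, it was not tested. Unknown depth limits all statements on genes near 0 TPM.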

Other observations

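Of the DEGs, 143 that rose and 57 that fell were in no gene list. Among these, and chosen after their values were seen, Lyz2 (lysozyme of macrophages and neutrophils) was at 2934, 1839 and 1659 TPM in intact and at 6027, 5870 and 5290 TPM in sham tissue (log2 fold change 1.46, adjusted p = 0.00538 from limma). Msln (mesothelin), a surface protein of mesothelial cells, was at 4.21, 3.78 and 4 TPM in intact and at 17.16, 19.5 and 14.82 TPM in sham tissue (1.85, adjusted p = 0.000247). Neither gene overlapped between the groups.

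A list of circadian clock genes was also added after the values were seen. Of 19 tested, 1 was a DEG, and 3 were higher and 4 lower by the adjusted p alone. That DEG was Arntl, which encodes the clock activator BMAL1. It was at 23.56, 23.34 and 19.59 TPM in intact and at 8.08, 7.53 and 6.56 TPM in sham tissue (-1.46, standard error 0.18, adjusted p = 0.00408 from limma). The hour of tissue collection was not used here, so its part in this difference was not tested.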
